A study of Mus musculus with 20 samples.

Results

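Glycolysis, the pentose phosphate branch, the entry of pyruvate into mitochondria and the citric acid cycle were described in mouse white adipose tissue through 48 genes, taken by name from a table of 56805 genes. The 48 genes comprised 16 of glycolysis with lactate dehydrogenase, 7 of the pentose phosphate branch, 9 of pyruvate entry and 16 of the citric acid cycle with the mitochondrial citrate carrier. The citric acid cycle branch includes Aco1, Idh1 and Mdh1, whose enzymes are cytosolic. RNA was sequenced from 20 mice in 4 groups of 5 after 10 weeks of feeding. Chow-water mice ate chow and drank water, and chow-tea mice ate chow and drank Tibetan tea, a dark tea made by fermentation and given here as an extract in water. High-fat-water mice ate a high-fat diet and drank water, and high-fat-tea mice combined the high-fat diet with the tea extract. By the design text each mouse is a separate animal. No strain, sex, age or fat depot is given in the labels. In these bulk samples fewer cells of a type and less RNA per cell cannot be told apart.

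Glycolysis splits glucose into pyruvate in the cytosol, and lactate dehydrogenase interconverts pyruvate and lactate. The pentose phosphate branch oxidises glucose 6-phosphate to supply NADPH, the reducing power that fat cells spend on fatty acid synthesis, and its later steps shuffle sugar phosphates back to glycolysis. Pyruvate enters mitochondria through the MPC carrier and becomes either acetyl-CoA, by pyruvate dehydrogenase, or oxaloacetate, by pyruvate carboxylase. PDK kinases switch pyruvate dehydrogenase off. Both products form citrate, which the citric acid cycle oxidises or which the citrate carrier exports for lipid synthesis.

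Levels are given as CPM (read counts scaled to library size, with sizes adjusted by trimmed means) and changes as log2 fold changes with their standard error (SE) from edgeR's quasi-likelihood F test over all 20 libraries. Calls required an adjusted p under 0.05 (Benjamini-Hochberg over 21306 tested genes), and all 48 members were tested. The libraries held 53047057 to 93314761 reads in genes, and the members together took 0.579% to 2.14% of them. Adipoq, the adipocyte hormone adiponectin, was present in every library at 844 to 4157 CPM. In 9 libraries a list of skeletal muscle, pancreas, kidney, reproductive tract or liver markers summed to over 1000 CPM. Fits without all 9 kept chow-water mice 3, 4 and 5 and chow-tea mice 2, 3, 4 and 5. On the high-fat diet they kept water mice 1 and 2 and tea mice 2 and 5, so few mice per group remained. The pancreas list reached 613500 CPM in chow-water mouse 1, the kidney list 21460 CPM in high-fat-tea mouse 4 and the reproductive list 31320 CPM in high-fat-water mouse 4, and the muscle list stood above 1000 CPM in 6 libraries. Summed markers of brown fat ranged from 7.03 to 1369 CPM and spanned more than 10 times within every group.

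Per kilobase of all exonic bases annotated to a gene, Pcx (pyruvate carboxylase) had the highest level of the 48 genes. Its mean over all mice was 361 RPKM (CPM per kilobase of these bases). Next came the aldolase gene Aldoa at 358 RPKM, lactate dehydrogenase Ldha at 227 RPKM, cytosolic malate dehydrogenase Mdh1 at 182 RPKM and transaldolase Taldo1 at 144 RPKM. The Aldoa mean includes 3378 and 4012 CPM in high-fat-water mouse 5 and high-fat-tea mouse 1, the libraries with the highest muscle sums. The lowest were the aldolase gene Aldoc at 0.65 RPKM, the ribose phosphate isomerase gene Rpia at 3.62 RPKM and hexokinase Hk1 at 5.89 RPKM. Aldoa, Gapdh, Pgk1, Pgam1, Ldha, Ldhb and Mpc1 have named pseudogenes in the count tables that could share reads with them, so their values are less certain. Only pseudogenes named after a member were searched, so other members, among them Pkm and Eno1, may have the same limit.

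**Figure D1:**
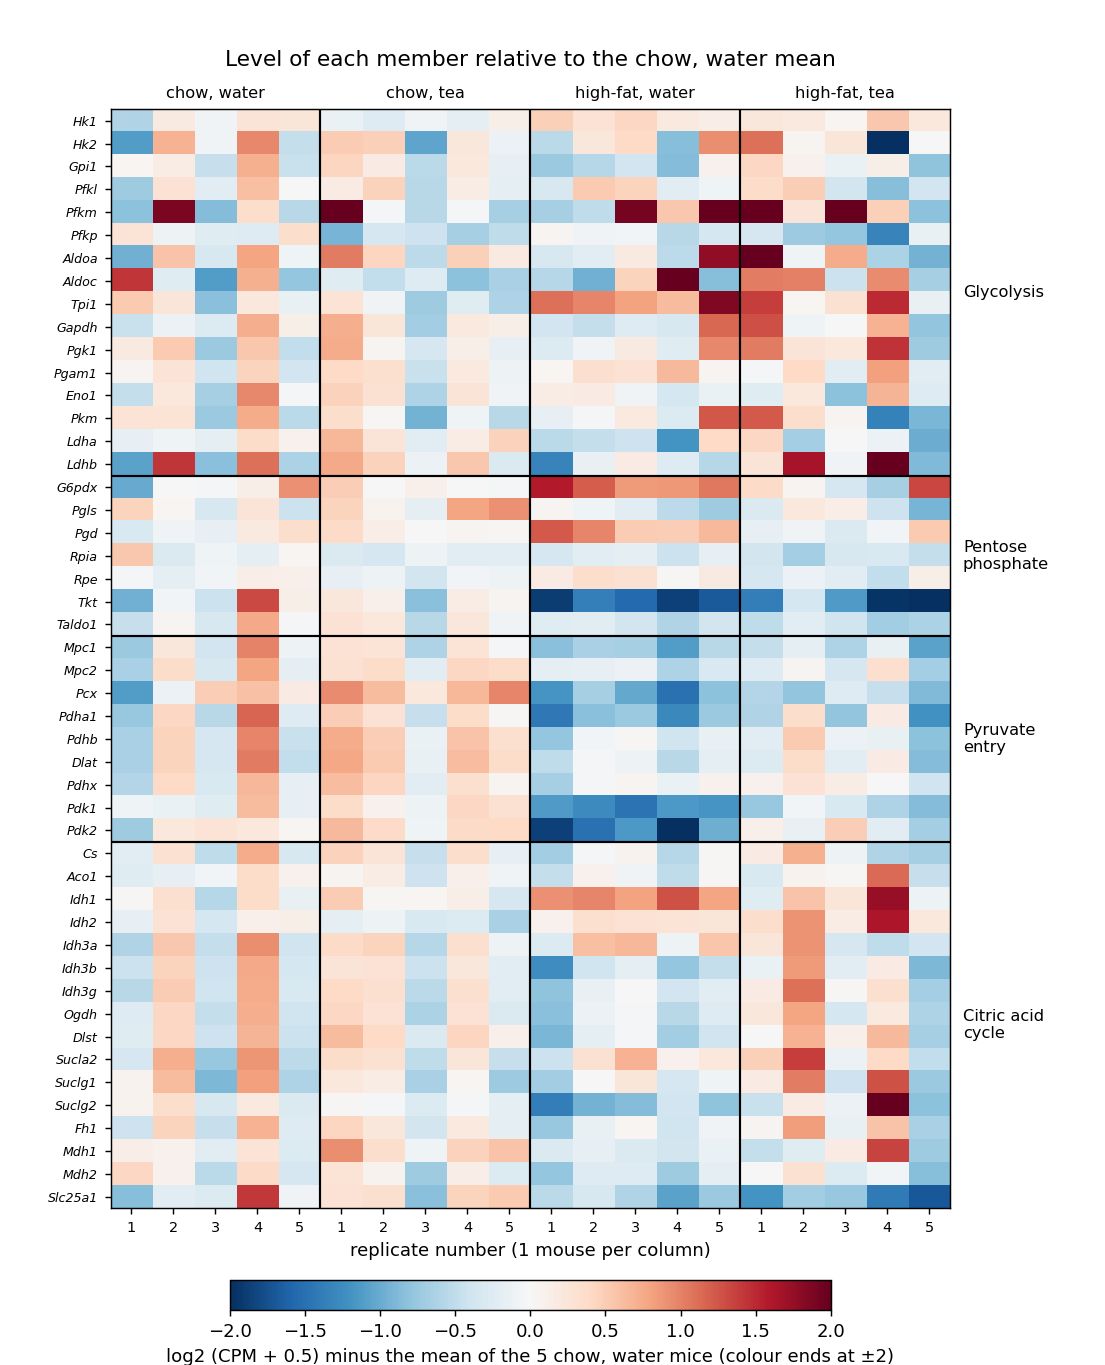
Colour shows each member's log2 (CPM + 0.5) in each of 20 mice (columns, by group and replicate number) minus the mean of the 5 chow-water mice, with colours ending at ±2. Pdk1, Pdk2 and Tkt are blue in all 5 high-fat-water mice, G6pdx and Pgd are red in the same mice, and Pfkm is dark red in single mice of several groups.

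The first comparison asked how the high-fat diet changed these genes in water-drinking mice. Of the 48 members, 10 passed, of which 4 rose and 6 fell on the high-fat diet, against 15.2% of all tested genes called (8.06% higher and 7.11% lower). Pyruvate entry held 5 of the 6 that fell, namely the kinases Pdk1 and Pdk2, pyruvate carboxylase Pcx, the carrier subunit Mpc1 and the dehydrogenase subunit Pdha1. In the pentose phosphate branch the NADPH-producing enzymes G6pdx and Pgd rose and transketolase Tkt fell. Triose phosphate isomerase Tpi1 was the 1 called gene of 16 in glycolysis, and cytosolic isocitrate dehydrogenase Idh1 the 1 called gene of 16 in the citric acid cycle branch. Both of them rose. No gene of a mitochondrial enzyme in the citric acid cycle branch was called.

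Branch medians are given without a test. Over mice within groups, the median log2 CPM of a branch had a pooled SD of 0.56 for glycolysis and 0.45 for the pentose phosphate branch. That SD was 0.48 for pyruvate entry and 0.47 for the citric acid cycle. All 9 genes of pyruvate entry had negative values, with a median log2 change of -0.89, against -0.00 over all tested genes. The median was 0.07 over the 16 glycolysis genes, of which 10 were positive and 6 negative, -0.31 over the 7 pentose phosphate genes and -0.31 over the 16 citric acid cycle genes, of which 12 were negative. With each library of the 2 groups left out in turn, the pyruvate entry median ranged from -1.09 to -0.56, the pentose phosphate median from -0.33 to -0.18, the citric acid cycle median from -0.45 to -0.14 and the glycolysis median from -0.16 to 0.26. The values nearest to 0 of the first 3 were those without chow-water mouse 4, and the pentose phosphate median was -0.19 without chow-water mouse 1. The glycolysis median was negative without chow-water mouse 1 or 3 or high-fat-water mouse 5. Without all 9 libraries with transcripts of other organs it was -0.23 and the pentose phosphate median 0.10, so the sign of these medians was not fixed. Another summary, the median log2 (CPM + 0.5) of the pentose phosphate genes in each mouse, went the other way. Its mean was 6.97 in chow-water mice (6.04 to 7.85) and 7.96 in high-fat-water mice (7.82 to 8.18). The direction of this branch thus depended on how its 7 genes were summarised.

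Pdk1 (chr2:71703568-71734202 of GRCm39, plus strand), a kinase that inhibits pyruvate dehydrogenase, had the lowest adjusted p of the 48 members. Its levels in chow-water mice 1 to 5 were 90.1, 87.3, 80.6, 149 and 85.5 CPM, and in high-fat-water mice 1 to 5 they were 43.4, 39.5, 34.3, 42.9 and 42.2 CPM. All 5 high-fat mice lay below all 5 chow mice. The log2 change was -1.28 (SE 0.18, edgeR adjusted p = 0.0004), and it kept its call without any single library. Pdk2 (chr11:94917084-94932180, minus strand), another kinase of the same complex, stood at 210.0, 398, 416, 398 and 353 CPM in chow-water mice and at 94.3, 122, 155, 81.0 and 175 CPM in high-fat-water mice. Again the groups did not overlap. Pdk2 fell by 1.50 on the log2 scale (SE 0.25, edgeR adjusted p = 0.0012), also without any single library. Groups that did not overlap made up 12.9% of all tested genes in this comparison and 7 of the 48 members.

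Pcx (chr19:4560500-4671780, plus strand), which makes oxaloacetate from pyruvate, was at 811, 1621, 2475, 2663 and 1984 CPM in chow-water mice and at 782, 1115, 868, 631 and 996 CPM in high-fat-water mice. The groups overlapped through chow-water mouse 1, the library with pancreas transcripts and the second-lowest adipocyte marker sum (11470 CPM). Pcx fell by 1.12 (log2, SE 0.27, edgeR adjusted p = 0.0112) and was called without each single library, with values from -1.36 to -0.97. Pdha1 (chrX:158905205-158921409, minus strand), a catalytic subunit of pyruvate dehydrogenase, averaged 502 ± 303 CPM in chow-water and 224 ± 48 CPM in high-fat-water mice (SD, n = 5). Its log2 change was -1.17 (SE 0.35, edgeR adjusted p = 0.0340). Mpc1 (chr17:8501736-8516493, plus strand), a subunit of the mitochondrial pyruvate carrier, averaged 46.8 ± 23.6 and 25.2 ± 3.72 CPM, with a log2 change of -0.89 (SE 0.27, edgeR adjusted p = 0.0342). Both calls ended when certain libraries were left out. Without chow-water mouse 2 or 4 or high-fat-water mouse 1, 2 or 4 neither gene was called, and Mpc1 was not called without high-fat-water mouse 3 either. Values without 1 library ran from -1.37 to -0.76 for Pdha1 and from -1.09 to -0.56 for Mpc1. Reads of Map3k15 on the opposite strand can fall on 16.2% of the exonic bases of Pdha1, and those of a neighbour on the opposite strand on 23.3% of those of Mpc1. The other 4 genes of the branch, Mpc2, Pdhb, Dlat and Pdhx, were not called, with log2 values from -0.42 to -0.19.

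The promoters of the 3 pyruvate entry genes whose calls held without each single library are shown. All 3 fell in this comparison, and of them only Pdk1 and Pdk2 were called for tea on the high-fat diet. Each sequence gives the 250 bases before the start of the first RefSeq window of the gene, on the gene's strand and in build GRCm38.p6, at chr19:4510222-4510471 (plus) for Pcx, chr2:71872974-71873223 (plus) for Pdk1 and chr11:95041372-95041621 (minus) for Pdk2. Capitals mark matches to 5 searched motifs.
Pcx: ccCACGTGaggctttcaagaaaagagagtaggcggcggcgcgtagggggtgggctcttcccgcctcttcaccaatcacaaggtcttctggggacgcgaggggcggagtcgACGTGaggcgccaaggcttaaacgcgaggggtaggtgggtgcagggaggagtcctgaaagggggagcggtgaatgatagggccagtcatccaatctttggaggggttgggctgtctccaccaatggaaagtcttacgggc
Pdk1: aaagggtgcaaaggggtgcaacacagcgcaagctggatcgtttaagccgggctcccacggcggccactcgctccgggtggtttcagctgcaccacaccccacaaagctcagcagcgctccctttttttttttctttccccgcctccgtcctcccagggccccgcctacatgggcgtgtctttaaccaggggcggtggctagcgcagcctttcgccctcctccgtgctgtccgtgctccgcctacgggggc
Pdk2: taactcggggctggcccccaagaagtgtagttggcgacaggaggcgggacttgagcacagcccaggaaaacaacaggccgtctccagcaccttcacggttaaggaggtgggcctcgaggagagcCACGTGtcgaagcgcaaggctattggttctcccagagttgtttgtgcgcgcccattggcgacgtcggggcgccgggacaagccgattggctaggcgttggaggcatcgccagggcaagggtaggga

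The E-box CACGTG was found in Pcx and Pdk2, and no motif searched was found in these bases of Pdk1. The search covered both strands of 300-base RefSeq windows, from 250 bases before to 50 bases after each start, and 47 of the 48 members matched, all but Idh3a. CACGTG, a palindrome that also holds the hypoxia response core ACGTG, was present in 6 of the 47 members and in 8.09% of all genes in the table. ACGTG was present in 18 of the 47 members, 10 of them in glycolysis, and in 21.8% of all genes. The antioxidant response core TGACNNNGC was present in 10 members, among them G6pdx, Pgd and Mpc1, and in 13.99% of all genes. AAGGTCA, the core bound by estrogen-related receptors, was present in 3 members and 5.38% of all genes, and the NRF1 motif in 5 members and 5.19% of all genes. A match is a match of letters and shows no binding.

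In the pentose phosphate branch Tkt (chr14:30270316-30296677, plus strand), the transketolase that returns pentose phosphates to glycolysis, stood at 477, 892, 688, 2310.0 and 1006 CPM in chow-water mice. In high-fat-water mice 1 to 5 Tkt was at 248, 360.0, 315, 253 and 290.0 CPM. All high-fat mice lay below all chow mice, of which mouse 4 was far above the rest. Tkt fell by 1.87 (log2, SE 0.39, edgeR adjusted p = 0.0047), with -2.11 to -1.39 without each single library and the call kept. Without all 9 libraries with transcripts of other organs the value was -2.16 (adjusted p = 0.0593), in a fit of fewer mice that called 9.2% of all tested genes.

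Pgd (chr4:149234448-149251228, minus strand), the 6-phosphogluconate dehydrogenase, moved the other way. It was at 146, 172, 159.7, 205 and 229 CPM in chow-water mice and at 422, 354, 257, 254 and 283 CPM in high-fat-water mice, without overlap. Pgd rose by 0.78 (log2, SE 0.17, edgeR adjusted p = 0.0074) and kept its call without each single library (0.65 to 0.88). G6pdx (chrX:73453089-73472800, minus strand), the glucose 6-phosphate dehydrogenase that opens the branch, stood at 61.6, 125, 122, 135 and 236 CPM in chow-water mice and at 374, 289, 225, 228 and 258 CPM in high-fat-water mice. Only chow-water mouse 5 reached into the high-fat range. Its log2 change of 1.02 (SE 0.34, edgeR adjusted p = 0.0499) was called only without chow-water mouse 5 among the 10 fits that left out 1 library, and the values of those fits ran from 0.79 to 1.31. The other 4 genes of the branch were not called.

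The summed level of 8 macrophage markers stood at 1036 to 2708 CPM in high-fat-water and at 408 to 1421 CPM in chow-water mice. With that sum as a covariate, chosen after seeing the data, Pgd was at 0.55 (adjusted p = 0.0628) and G6pdx at 0.46 (adjusted p = 0.324), while Tkt, Pcx, Pdk1 and Pdk2 kept their calls, as did Tpi1 (1.61, adjusted p = 0.00862) and Idh1 (1.38, adjusted p = 0.00948). In that fit the citric acid cycle median was -0.05 and the glycolysis median 0.38, and Mpc1 was at -0.70 (adjusted p = 0.173) and Pdha1 at -0.78 (adjusted p = 0.223).

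Tpi1 (chr6:124787549-124791259, minus strand), which interconverts the triose phosphates of glycolysis, was at 309.6, 255, 121, 251 and 194.5 CPM in chow-water mice and at 462, 424, 379, 336 and 777 CPM in high-fat-water mice. The groups did not overlap, and the highest value belonged to high-fat-water mouse 5, whose muscle marker sum was 32690 CPM. Tpi1 rose by 1.07 (log2, SE 0.34, edgeR adjusted p = 0.0419). The call ended without any of chow-water mice 2 to 5 or high-fat-water mice 1, 2 and 5, with values from 0.82 to 1.17, and with the muscle sum as a covariate (0.94, adjusted p = 0.0606). The muscle form of phosphofructokinase, Pfkm, had the largest value of the branch (log2 2.14) and was not called (edgeR adjusted p = 0.204), and its level ran from 23.3 to 874 CPM within the high-fat-water group.

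Idh1 (chr1:65197775-65225659, minus strand), the cytosolic NADP-dependent isocitrate dehydrogenase, stood at 131, 163, 87.4, 168 and 117 CPM in chow-water mice and at 246, 255, 226, 315 and 225 CPM in high-fat-water mice. No high-fat mouse overlapped a chow mouse. The log2 change was 0.93 (SE 0.30, edgeR adjusted p = 0.0471), and the call ended without each of the 10 libraries in turn, with values from 0.81 to 1.02. Suclg2, the GTP-forming subunit of succinyl-CoA ligase, was at 91.6 to 146 CPM in chow-water and at 43.3 to 87.8 CPM in high-fat-water mice, with no overlap and no call (log2 -0.87, SE 0.42, edgeR adjusted p = 0.170). Suclg2 was called with only the compared groups in the fit (-0.88, adjusted p = 0.0195), without the 3 libraries with pancreas, kidney or reproductive transcripts (-1.01, adjusted p = 0.00316) and without all 9 libraries with transcripts of other organs (-1.07, adjusted p = 0.0421). The remaining 14 genes of the branch, among them citrate synthase Cs, the NAD-dependent isocitrate dehydrogenase genes Idh3a, Idh3b and Idh3g and the citrate carrier Slc25a1, were not called, with log2 values between -0.87 and 0.23. Without chow-water mouse 1 Slc25a1 was called at -1.09 (adjusted p = 0.0410).

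**Figure D2:**
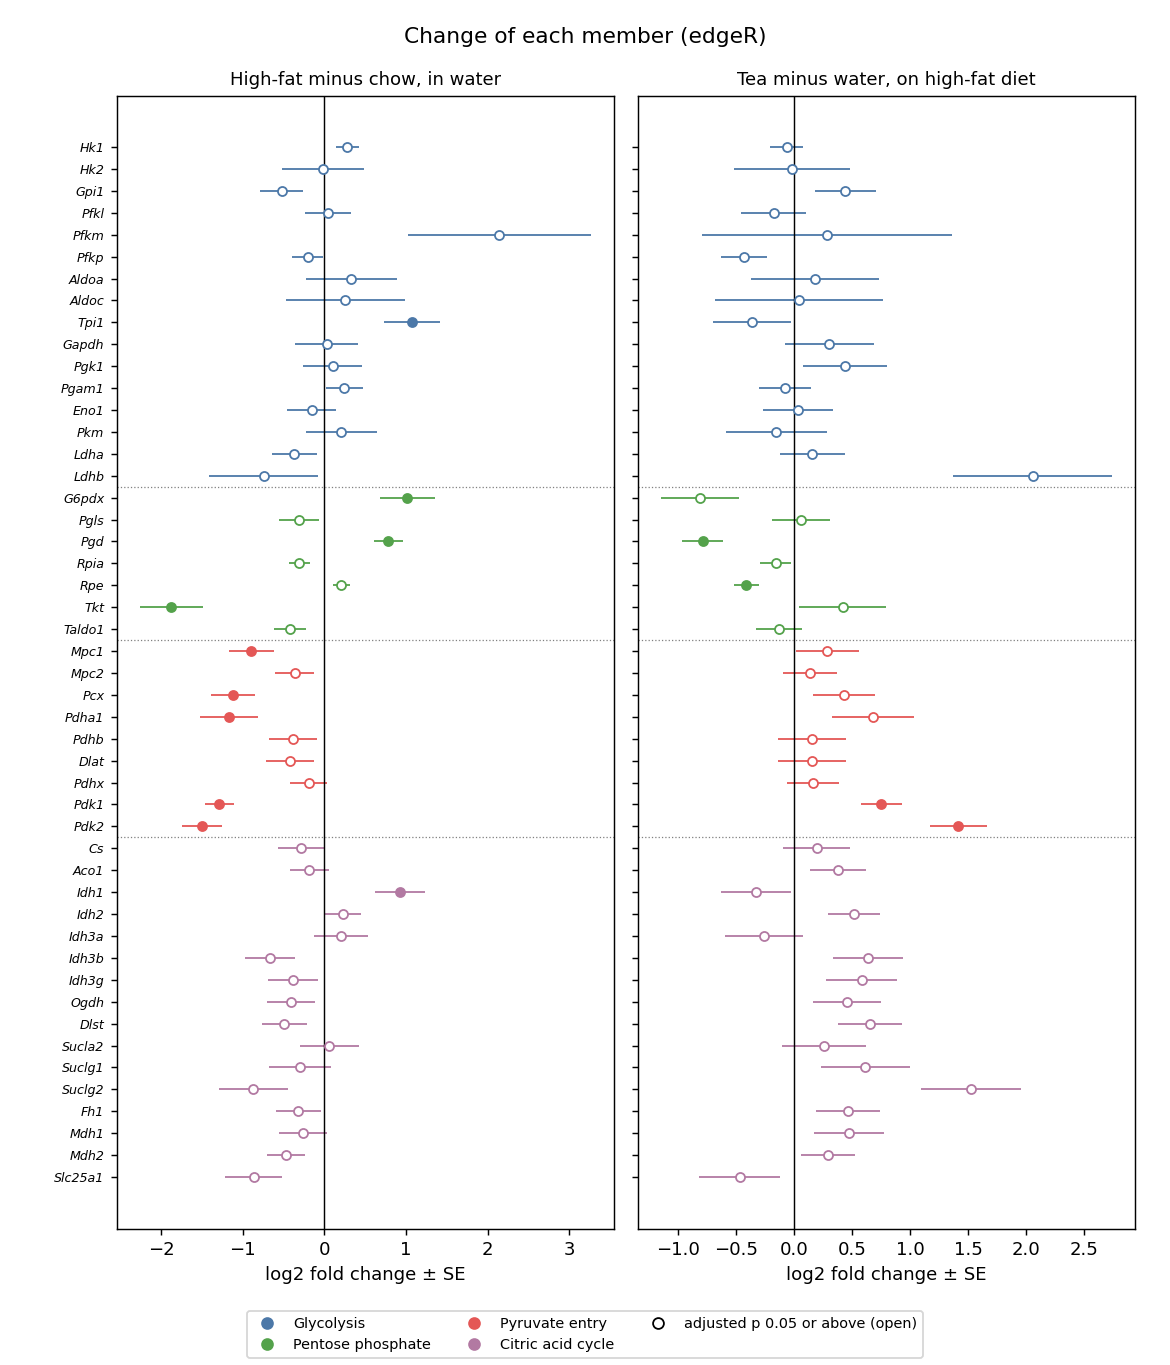
Points are log2 fold changes of the 48 members with their SE from the edgeR fit, high-fat minus chow in water-drinking mice (left) and tea minus water on the high-fat diet (right), and filled points mark an adjusted p below 0.05. All 9 pyruvate entry genes lie left of 0 in the left panel and right of 0 in the right panel, and the 2 comparisons share the high-fat-water mice.

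The second comparison asked what tea changed in mice on the high-fat diet. It called 4 of the 48 members, against 4.36% of all tested genes (2.06% higher and 2.30% lower). Pdk1 and Pdk2 rose with tea, and Pgd and the ribulose phosphate epimerase gene Rpe fell. In the main edgeR fit no gene of glycolysis or the citric acid cycle was called, with 2 and 3 of 16 at an unadjusted p below 0.05. That level was reached by 10 of the 48 members and 23.6% of all tested genes. Other edgeR settings with all mice called Suclg2, Idh3b or Dlst of the citric acid cycle, as given below. DESeq2 called 6 members, among them Ldhb of glycolysis and Suclg2 of the citric acid cycle, against 10.6% of all genes it tested. Limma voom called 4, against 5.25%. This comparison shares the high-fat-water mice with the first, so that a value low in those mice is negative in the first and positive in the second by construction.

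Pdk2 was at 372, 309.7, 484, 294 and 215 CPM in high-fat-tea mice 1 to 5, all above the highest high-fat-water mouse (175 CPM). It rose by 1.41 (log2, SE 0.25, edgeR adjusted p = 0.0071), and the call held without each single library (1.24 to 1.57). Pdk1 stood at 56.6, 92.2, 77.7, 62.0 and 52.4 CPM in high-fat-tea mice, all above the highest high-fat-water mouse (43.4 CPM) and, but for mouse 2, below the lowest chow-water mouse (80.6 CPM). Its log2 change was 0.75 (SE 0.18, edgeR adjusted p = 0.0256). The call ended without high-fat-water mouse 1, 2 or 3 or high-fat-tea mouse 2 or 3, with values from 0.62 to 0.83. Groups that did not overlap made up 5.55% of all tested genes and 2 of the 48 members, Pdk1 and Pdk2.

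Pgd was at 161, 171, 147, 173 and 258 CPM in high-fat-tea mice, and mouse 5 reached into the range of the high-fat-water mice (254 to 422 CPM). It fell by 0.79 (log2, SE 0.17, edgeR adjusted p = 0.0202). The call ended without high-fat-water mouse 1 or 2 or high-fat-tea mouse 2 or 3 (-0.95 to -0.66 over the 10 fits). Rpe (chr1:66739990-66758964, plus strand), the epimerase that links ribulose and xylulose phosphates, was at 32.0, 37.3, 34.4, 28.4 and 44.1 CPM in high-fat-tea mice and at 45.5, 51.8, 49.7, 41.0 and 45.9 CPM in high-fat-water mice. Mouse 5 of the tea group overlapped the water group. Rpe fell by 0.41 (log2, SE 0.11, edgeR adjusted p = 0.0398), a call that remained only without high-fat-water mouse 4 or high-fat-tea mouse 5 (-0.50 to -0.34). Reads of Kansl1l on the opposite strand can fall on 17.9% of the exonic bases of Rpe. G6pdx, at 163, 129, 98.6, 78.1 and 315 CPM in high-fat-tea mice, had a log2 value of -0.81 (SE 0.34, edgeR adjusted p = 0.156), and without mouse 5 it was called at -1.23 (adjusted p = 0.0179).

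None of the 4 calls held with only the libraries of the compared groups in the fit. None held without all 9 libraries with transcripts of other organs, although each of the 4 values kept its sign. These fits called 0.107% and 0.0583% of all tested genes, against 4.36% in the main fit. The second left high-fat-water mice 1 and 2 and high-fat-tea mice 2 and 5. A call lost there cannot separate fewer mice from the absence of these transcripts. Under the first setting Pdk2 was at 1.43 (adjusted p = 0.0658), Pdk1 at 0.77 (adjusted p = 0.0699), Pgd at -0.77 (adjusted p = 0.0905) and Rpe at -0.39 (adjusted p = 0.127). Macrophage markers summed to 426 to 1449 CPM in high-fat-tea mice, and with that sum as a covariate Pdk2 alone kept its call. The fit with that covariate called 2.26% of all tested genes.

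The citric acid cycle had a branch median log2 change of 0.46 in this comparison, with 13 of 16 genes positive, against 0.29 for pyruvate entry (9 of 9 positive), 0.04 for glycolysis, -0.16 for the pentose phosphate branch and 0.02 over all tested genes. The cycle median was 0.27 without high-fat-tea mouse 2, 0.29 without mouse 4 and up to 0.61 without another library, and the pyruvate entry median ran from 0.20 to 0.41. With the macrophage sum as a covariate they were 0.05 and 0.10, so the order of these branches was not fixed. Suclg2 had the lowest adjusted p of the cycle (log2 1.52, SE 0.43, edgeR adjusted p = 0.0505). Its levels in high-fat-tea mice 1 to 5 were 83.3, 128, 106, 532 and 64.2 CPM, and the highest belonged to mouse 4, the library with kidney transcripts. It was called with all mice by DESeq2 (1.57, adjusted p = 0.00634) and with RLE scaling, the size factors of DESeq2 used in edgeR (1.57, adjusted p = 0.0478). By edgeR it was also called without high-fat-tea mouse 1 (1.71, adjusted p = 0.0404), without mouse 5 (1.74, adjusted p = 0.0149) and without the 3 libraries with pancreas, kidney or reproductive transcripts (0.73, adjusted p = 0.0378). Ldhb, the lactate dehydrogenase subunit typical of heart and kidney, was at 931 CPM in the same mouse and at 48.4 to 281 CPM in the other 4, with a log2 value of 2.05 that was not called (SE 0.69, edgeR adjusted p = 0.0871) but was by DESeq2 (2.10, adjusted p = 0.0146) and, by edgeR, without high-fat-tea mouse 5 (2.33, adjusted p = 0.0343). Cytosolic Idh1, at 437 CPM in mouse 4 and 109 to 193 CPM in the other 4, was not called with all mice (log2 -0.33) and was called without mouse 4 (-0.81, adjusted p = 0.0409). The part of these transcripts of other organs in the results with all mice was not tested beyond these values.

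**Figure D3:**
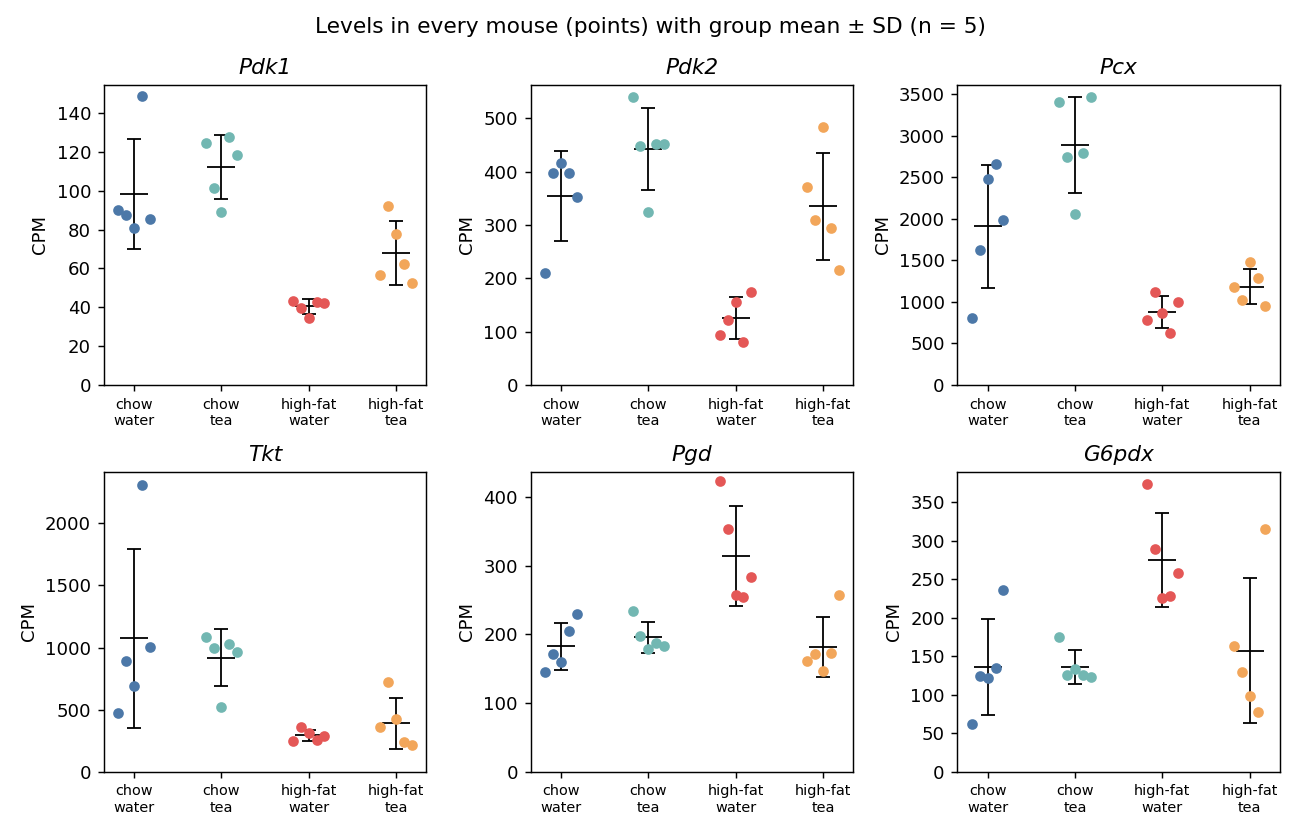
Points give the CPM of 6 members in every mouse, and horizontal lines with bars the group mean ± SD (n = 5). Pdk1 and Pdk2 in high-fat-water mice lie below all mice of the other 3 groups, while Pcx and Tkt are low in most mice of both high-fat groups.

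The third comparison, tea against water on chow, called 0 of the 48 members by edgeR, against 0.0235% of all tested genes, and 2 members had an unadjusted p below 0.05, against 12.4%. DESeq2 and limma voom also called 0, against 1.17% and 0.0282% of all genes they tested. The 2 were the platelet-type phosphofructokinase Pfkp, at 71.9 ± 11.4 CPM with tea and 108 ± 22.0 CPM with water (SD, n = 5; log2 -0.58, edgeR adjusted p = 0.247), and Pcx, at 2890 ± 577 and 1911 ± 739 CPM (log2 0.60, edgeR adjusted p = 0.368). Every chow-tea mouse lay below every chow-water mouse in Pfkp, the 1 member whose groups did not overlap, against 2.56% of all tested genes. Branch medians were -0.01 for glycolysis, -0.01 for the pentose phosphate branch, 0.20 for pyruvate entry and -0.01 for the citric acid cycle, against -0.03 over all tested genes.

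The fourth comparison was the high-fat diet against chow in tea-drinking mice. The main edgeR fit called 0 members, against 0.178% of all tested genes, with 9 members at an unadjusted p below 0.05, against 16.3%. Limma voom called 0 and DESeq2 called 5, against 0.343% and 4.31% of all genes they tested. By DESeq2 Pcx (log2 -1.28, adjusted p = 0.000565), Tkt (-1.23, adjusted p = 0.0375), Pdk1 (-0.71, adjusted p = 0.0167) and the citrate carrier gene Slc25a1 (-1.32, adjusted p = 0.0154) fell, and the mitochondrial isocitrate dehydrogenase Idh2 rose (1.07, adjusted p = 0.00212). The edgeR adjusted p was 0.0577 for Pcx and 0.0591 for Idh2, the 2 members nearest to a call. Pcx was at 3407, 2741, 2052, 2787 and 3464 CPM in chow-tea and at 1179, 1023, 1477, 1290.0 and 953 CPM in high-fat-tea mice. Idh2 was at 106, 113, 98.9, 100.4 and 77.95 CPM in chow-tea and at 156, 228, 135, 375 and 141 CPM in high-fat-tea mice. Neither gene's groups overlapped, against 2.77% of all tested genes. Without high-fat-tea mouse 3 edgeR called 3 members, Pcx (-1.38, adjusted p = 0.0238), Pdk1 (-0.77, adjusted p = 0.0490) and Idh2 (1.18, adjusted p = 0.0114). The fit without that mouse called 1.79% of all tested genes. Branch medians were 0.23 for glycolysis, -0.20 for the pentose phosphate branch, -0.52 for pyruvate entry (9 of 9 negative) and 0.10 for the citric acid cycle, against 0.07 over all tested genes.

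The last comparison tested whether the tea effect differed between diets. edgeR called 0 members, against 0.0657% of all tested genes, and 6 had an unadjusted p below 0.05, against 15% of all tested genes. Limma voom called 0, and DESeq2 called Pgd (log2 -0.86, adjusted p = 0.0420), against 0.0282% and 3.15% of all genes they tested. By edgeR Pgd had a difference of -0.89 (SE 0.25, adjusted p = 0.125) and Pdk2 one of 1.09 (SE 0.34, adjusted p = 0.140). Without high-fat-tea mouse 5 the edgeR value of Pgd was -1.05 (adjusted p = 0.0475). A different response of Pdk1, Pdk2, Pgd or Rpe to tea on the 2 diets was thus not established by edgeR with all mice.

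Ratios of paralogous enzymes were compared within libraries, where scaling cancels. Over 8 pairs and 4 comparisons, 0 of 32 ratios passed the exact two-sided permutation test after Benjamini-Hochberg adjustment, and 5 had an unadjusted p below 0.05. With 5 mice against 5 the smallest p this test can give is 0.0079. After adjustment over 32 ratios that p passes only where several ratios reach it, so a single separated ratio could not pass. The 0 of 32 therefore does not show that no ratio differed. The ratio of cytosolic Idh1 to mitochondrial Idh2 reached this smallest p in 2 comparisons. Its log2 was 0.09 ± 0.24 in chow-water, 0.80 ± 0.20 in high-fat-water, 0.47 ± 0.21 in chow-tea and -0.11 ± 0.31 in high-fat-tea mice (SD, n = 5). High-fat-water mice lay above all chow-water mice (difference 0.71, exact permutation p = 0.0079, adjusted p = 0.127), and high-fat-tea mice lay below all high-fat-water mice (difference -0.91, exact permutation p = 0.0079, adjusted p = 0.127). The difference was 0.38 for tea on chow (exact permutation p = 0.0317, adjusted p = 0.203) and -0.58 for the high-fat diet with tea (exact permutation p = 0.0159, adjusted p = 0.127), both with overlapping groups. The ATP-forming to GTP-forming succinyl-CoA ligase subunits, Sucla2 to Suclg2, had a log2 ratio of 0.60 ± 0.51 in chow-water and 1.66 ± 0.41 in high-fat-water mice (difference 1.06, exact permutation p = 0.0159, adjusted p = 0.127). The log2 ratio of Pdk1 to Pdk2 was -1.85 ± 0.50 in chow-water, -1.58 ± 0.56 in high-fat-water, -1.98 ± 0.15 in chow-tea and -2.28 ± 0.41 in high-fat-tea mice, and the 4 adjusted p-values ranged from 0.339 to 0.871. Hk2 to Hk1, Pfkp and Pfkm to Pfkl, Aldoc to Aldoa and Ldhb to Ldha gave unadjusted exact p-values of 0.111 or more.

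Variation between mice of a group was large in some branches and moved with markers of brown fat and muscle. Over the 20 libraries, and after subtracting group means on the log2 scale, the median Pearson correlation between a citric acid cycle gene and the summed brown fat markers was 0.75 (Spearman 0.77, and 0.74 without the 2 libraries farthest from the median of the marker sum). It was 0.57 for pyruvate entry, 0.44 for glycolysis and 0.15 for the pentose phosphate branch. Such values describe genes measured in the same libraries and are not independent of one another. Sucla2, chosen after seeing the values, had r = 0.88 and rho = 0.92 (permutation p = 1e-05 for both, the smallest that 100000 reassignments of mice within groups can give, and r = 0.91 without the 2 libraries farthest from the median). Its level ran from 102 to 451 CPM. Against skeletal muscle markers Pfkm, also chosen after seeing the values, had r = 0.89 and rho = 0.79 (permutation p = 0.00017 and 0.00155, and r = 0.84 without the 2 farthest libraries), and the glycolysis median was 0.42 (Spearman 0.30, and 0.20 without the 2 farthest libraries). These are 2 of 192 relations computed, of 48 members with 4 marker sums, and the p-values are not adjusted for that number. For the other 2 sums r is given as a description. With macrophage markers the citric acid cycle median was -0.43. G6pdx had r = 0.74 with adipocyte and 0.70 with macrophage markers, and Suclg2 had r = -0.76 and -0.68, both chosen after seeing the values. Both sums were lowest in chow-water mouse 1 and high-fat-tea mouse 4, the libraries with pancreas and kidney transcripts. There G6pdx was lowest in its group, at 61.6 and 78.1 CPM, and Suclg2 was at 120 and 532 CPM. No rank correlation or value without these libraries is given, and their part in these relations was not tested.

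Pfkm stood at 139, 150.1, 143, 874, 941 and 304 CPM in the 6 libraries with a muscle sum above 1000 CPM, and at 20.3 to 54.4 CPM in the other 14. Those 6 libraries were 1 of 5 chow-water, 1 of 5 chow-tea, 2 of 5 high-fat-water and 2 of 5 high-fat-tea mice. With the brown fat sum as a covariate, chosen after seeing the data, 11 members were called for the high-fat diet in water and 6 for tea on the high-fat diet. Of all tested genes 16.1% and 4.9% were called in that fit, against 15.2% and 4.36% without the covariate. The additional calls were Idh3b in both (log2 -0.68 and 0.65, adjusted p = 0.0172 and 0.0467) and Dlst, the succinyl-transferase subunit of the oxoglutarate dehydrogenase complex, in the second (0.69, adjusted p = 0.0488).

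**Figure D4:**
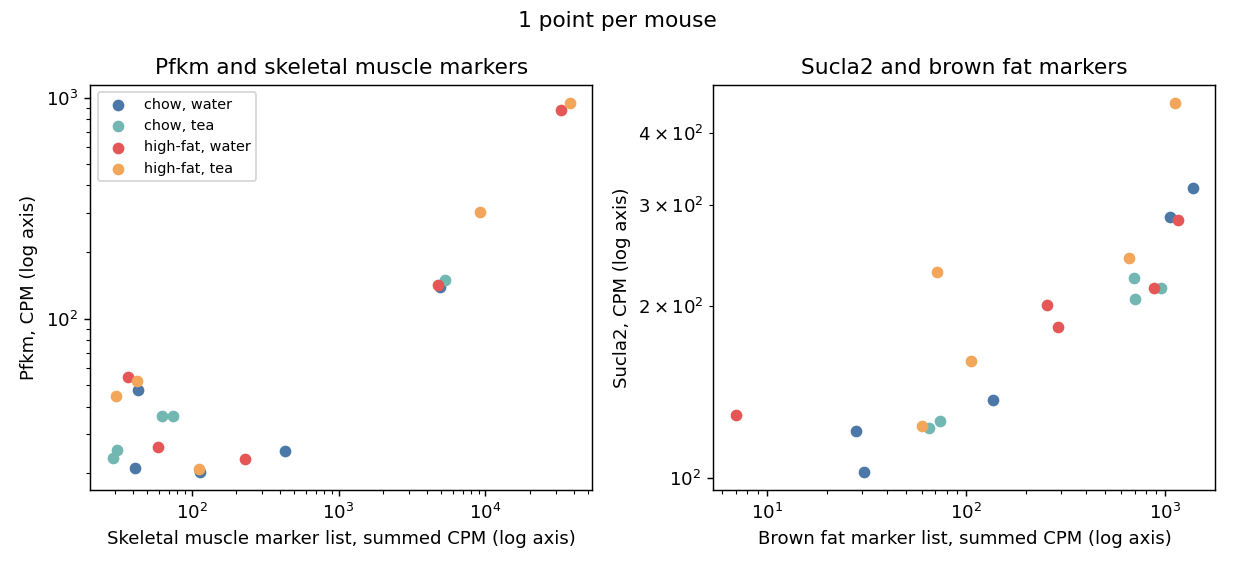
Each point is 1 mouse, coloured by group, with log axes. Pfkm in CPM against 14 summed skeletal muscle markers (left) lies above 100 CPM in the 6 mice with sums above 1000 CPM, and Sucla2 in CPM against 4 summed brown fat markers (right) is mostly higher where that sum is higher.

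Among 56 other genes of these pathways, 54 were tested. The high-fat diet in water called 7 of the 54, against 15.2% of all tested genes. Pdk4, a pyruvate dehydrogenase kinase that fasting induces, fell by 1.77 (log2, SE 0.40, edgeR adjusted p = 0.0076), from 1473 ± 901 to 433 ± 145 CPM (SD, n = 5). Pck1, the cytosolic phosphoenolpyruvate carboxykinase that fat cells use to make glycerol phosphate, fell from 6596 ± 2051 to 2114 ± 610 CPM (log2 -1.64), and mitochondrial Pck2 (-0.88) and the lactate transporter Slc16a1 (-0.82) also fell. Hexokinase Hk3, an enzyme of myeloid cells, rose from 4.55 ± 2.30 to 23.96 ± 11.1 CPM (2.39), and Ogdhl (2.15) and Hif1a (0.33) rose. Pck2 was not called without high-fat-water mouse 2, 3 or 5 (lowest size -0.59), Ogdhl not without chow-water mouse 2 or 3 or high-fat-water mouse 4 (from 1.57), and Hif1a not without high-fat-water mouse 1 (0.30 to 0.36). With only the compared groups in the fit the calls of Slc16a1 (-0.83, adjusted p = 0.0538) and Pck2 (-0.89, adjusted p = 0.0565) ended. Without all 9 libraries with transcripts of other organs Slc16a1 (-0.62, adjusted p = 0.166), Pck2 (-0.58, adjusted p = 0.0571) and Pdk4 (-1.89, adjusted p = 0.0501) were not called, and Pck2 was not called with the macrophage sum as a covariate (-0.81, adjusted p = 0.102). The fit without the 9 libraries called 9.2% of all tested genes and that with only the compared groups 13.6%, against 15.2% in the main fit.

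Tea on the high-fat diet called 3 of the 54, against 4.36% of all tested genes. Pck1 rose to 5135 ± 1761 CPM (log2 1.28, SE 0.31, edgeR adjusted p = 0.0290), and Hk3 fell to 6.85 ± 4.46 CPM (-1.81, SE 0.43, edgeR adjusted p = 0.0277). Ldhd, a D-lactate dehydrogenase, was called at 3.48 through high-fat-tea mouse 4 at 1407 CPM, against 20.4 to 61.2 CPM in the other 4, and was at 0.43 without it. The call of Pck1 ended without high-fat-water mouse 1, 2 or 4 or high-fat-tea mouse 3 or 4 (1.05 to 1.39), that of Hk3 without high-fat-water mouse 1 or 2 or high-fat-tea mouse 1, 2, 3 or 4 (-2.29 to -1.50), and that of Ldhd without 8 of the 10 libraries. With only the compared groups in the fit Pck1 was at 1.30 (adjusted p = 0.0864), Hk3 at -1.79 (adjusted p = 0.0823) and Ldhd at 3.51 (adjusted p = 0.159). Without all 9 libraries with transcripts of other organs none of the 3 was called either, and Pck1 was not called with the macrophage sum as a covariate (adjusted p = 0.0801). The fit with only the compared groups called 0.107% of all tested genes, that without the 9 libraries 0.0583% and that with the macrophage sum 2.26%. edgeR called 0 of the 54 in each of the other 3 comparisons, against 0.0235%, 0.178% and 0.0657% of all tested genes. At an unadjusted p below 0.05 were 4 of the 54 for tea on chow, 14 for the high-fat diet with tea and 9 for the interaction, against 12.4%, 16.3% and 15% of all tested genes.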

How the data were processed

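For each mouse the authors deposited unnormalised counts per gene. Reads had passed through HISAT2 2.2.1, fastp 0.23.2 and featureCounts 2.0.6, per the submitters' processing notes. These notes name mm10, while per the file headers genes were counted on GENCODE vM32, whose positions in the deposited tables are GRCm39. Per the file headers paired reads were counted without merging pairs and without a strand option, so 68.1% to 72.2% of counts from 1 to 20 were even and reads of genes that overlap on opposite strands cannot be told apart. Of the 48 members, 16 share exonic bases with another gene.

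From these counts, genes were filtered with filterByExpr of edgeR 4.0.16 in R 4.3.3 (minimum 10 counts, 15 in total), scaled by TMM and tested with the quasi-likelihood F test on group means over 20 libraries, which kept 21306 genes and removed 35499. The common biological coefficient of variation was 0.593. The steps were tested on simulated data. DESeq2 1.42.0, limma 3.58.1 (voom) and other filters, scalings, covariates and sets of libraries were alternatives. Ratios used 0.5 reads added to each count. Among 40 library pairs of the same group, the chi-square per gene was at least 61.6, so no library was counted as a repeat. P-values measure the spread between mice, tissue sampling and library preparation together.

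The members and the other gene lists were chosen with earlier results of these data known. Named are the members called in a comparison and the members of the paralog pairs, the others by range and count, except for members and other genes named for a high or low level, a call under an alternative or 1 mouse that stood apart, which were chosen after their values were seen. Values in each mouse are given for the called members with the lowest adjusted p in each branch and for some others chosen after their values were seen.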

Additional observations from a re-analysis of the deposited data

Results flagged for a closer look

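Of 192 combinations of member and group, 22 in 18 members held 1 mouse whose distance to its nearest neighbour exceeded the Dixon limit of 0.71 of the group's range, a limit that chance alone passes in about 1 of 20 groups. In high-fat-water mouse 5, the library with a muscle marker sum of 32690 CPM, 6 glycolysis genes stood apart from the other 4 mice, namely Pfkm at 874 CPM, Aldoa at 3378 CPM, Tpi1 at 777 CPM, Gapdh at 318 CPM, Pgk1 at 337 CPM and Pkm at 998 CPM. Pfkm also stood apart in the 2 chow libraries with muscle sums above 1000 CPM, at 139 CPM in chow-water mouse 2 and at 150.1 CPM in chow-tea mouse 1.

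High-fat-tea mouse 4, with a kidney marker sum of 21460 CPM, stood apart in Ldhb at 931 CPM and in 4 genes of the citric acid cycle branch, Aco1 at 458 CPM, Idh1 at 437 CPM, Suclg2 at 532 CPM and Mdh1 at 1127 CPM. Chow-water mouse 4 was highest in Tkt at 2310.0 CPM, Pdk1 at 149 CPM and Slc25a1 at 859.6 CPM. Chow-tea mouse 3 was lowest in Tkt at 518 CPM, Mpc2 at 112 CPM and Slc25a1 at 180.3 CPM. Single values stood apart for Aldoc in high-fat-water mouse 4 at 8.26 CPM, G6pdx in chow-tea mouse 1 at 175 CPM and Pgd in high-fat-tea mouse 5 at 258 CPM.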

How the results depend on the processing

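No called gene reversed its sign in any alternative run. Over the calls of single genes, 204 values kept and 60 lost the call under the other settings, and 160 kept and 80 lost it without 1 library. For the high-fat diet in water the 10 calls became 5 with no filter on low counts and 6 with the macrophage marker sum as covariate, and 5 to 9 without 1 library. Of all genes these settings called 5.74%, 9.45% and 8.69% to 15.8%, against 15.2% in the main fit. For tea on the high-fat diet the 4 calls became 0 with only the compared groups in the fit, 0 without all 9 libraries with transcripts of other organs, 1 with the macrophage sum, and 1 to 7 without 1 library. Of all genes these settings called 0.107%, 0.0583%, 2.26% and 0.975% to 9.26%, against 4.36% in the main fit. For the high-fat diet with tea the 0 calls became 5 by DESeq2, 2 without 3 libraries with transcripts of other organs, 2 with the muscle sum, 2 with the macrophage sum and 0 to 3 without 1 library. The shares of all genes called were 4.31%, 1.36%, 0.666%, 0.685% and 0.0459% to 1.79%, against 0.178% in the main fit. The interaction went from 0 to 1 by DESeq2 and to 0 to 1 without 1 library, with 3.15% and 0.0137% to 0.51% of all genes called, against 0.0657%. Tea on chow gave 0 calls throughout. Branch medians changed sign under some settings. For the high-fat diet in water they ran from -0.23 to 0.38 for glycolysis and from -0.33 to 0.10 for the pentose phosphate branch, and for the interaction from -0.03 to 0.64 for the citric acid cycle and from -0.30 to 0.13 for glycolysis. For the high-fat diet with tea they were -0.13 for the citric acid cycle without high-fat-tea mouse 2 and -0.10 for glycolysis without high-fat-tea mouse 1. The brown fat and macrophage sums were chosen after seeing the data. Only the groups compared could not be set for the interaction, which uses all 4 groups.

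Mice were not paired by replicate number in the main fit. Deviations of same-numbered mice correlated from -0.32 to 0.57. Their means by pair of groups ran from -0.064 to 0.106, and those of mice with other numbers from -0.027 to 0.017. These values cannot decide whether same-numbered mice were handled together. With a replicate block the calls numbered 8 for the high-fat diet in water, against 12.3% of all tested genes, and 3 for tea on the high-fat diet, against 2.97%. They numbered 0 in the other 3 comparisons, and Mpc1, Pdha1 and Rpe among the members lost their call.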
